A study of Homo sapiens with 6 samples.

Results

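The genes described here encode the signalling chains of the T-cell receptor complex (CD3D, CD3E, CD3G and CD247), the co-receptors CD4, CD8A and CD8B, the kinases LCK and ZAP70, and the adaptor LAT. They were taken by name, after matching Ensembl identifiers without version to symbols, and all 10 were found among the 33644 genes of the authors' deposited table. Of these 10, 9 had an adjusted p-value in that table, and 8 were called lower, at an adjusted p under 0.05, in 1 of the 2 groups compared. Of all 13957 genes with an adjusted p-value, 14.8% were called lower in that group.

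The labels describe RNA sequencing of HEK293T cells, a kidney-derived human line expressing the SV40 large T antigen, grown in DMEM with serum and taken at day 0 with no treatment. There were 3 wild-type samples and 3 samples of a derivative line in which alt-LAMA3, named for the laminin gene LAMA3, was knocked out. Whether the knockout line is 1 clone, and whether samples of a group were separate cultures, is not said in the labels, so the p-values may reflect no more than technical variation. The authors' deposited table gives 1 comparison of 2 groups that its header does not name, with no value per sample, so log2 fold changes are given as numerator over denominator group, a positive value meaning more RNA in the numerator group. Whether either of these groups is the knockout line is not known, and no effect of the knockout is described.

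On a T cell, the clonotypic receptor chains recognise a peptide held by an MHC molecule but have no signalling tail of their own. The CD3 chains and the zeta chain, encoded by CD247, supply the tails, which carry tyrosine motifs called ITAMs. LCK, brought to the receptor by CD4 on helper cells or by CD8 on cytotoxic cells, phosphorylates the ITAMs, ZAP70 docks on them and is activated, and ZAP70 phosphorylates LAT, the membrane scaffold on which the downstream signalling complex is built. These genes act together in T cells, and a kidney-derived line is not known for expressing them.

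The levels of these genes went against the labelled cell type. The mean normalized count of a gene, which is its count divided by the size factor of each library and averaged over all libraries, was at least 72.0 for 9 of the 10 genes, a level equal to 5 per 1000000 of the summed means. Their summed mean normalized count was 68306. Against this, 2 of 15 markers of HEK293 and epithelial cells reached that level, VIM, an intermediate filament gene that many cell types express, at 54716 and ENO2 at 556, with KRT8 at 3.42 and 5 of the 15 at 0 in the authors' deposited table. B-cell markers reached it in 0 of 9 (highest CD22, at 1.05), myeloid markers in 1 of 10 (CD68, at 103) and natural killer cell markers in 1 of 7 (NCAM1, at 576) in the authors' deposited table. Very low means shared exactly by at least 50 genes were collected, leaving out those that were a doubled lower value or a sum of 2 lower values. The 9 values left were each shared by 149 to 390 genes. Of them, 3 belonged to genes with positive, 3 to genes with negative and 3 to genes with zero log2 fold changes, where the labels give 6 samples. A mean normalized count may therefore include libraries that are in neither group, and levels within each group are not known. Whether the values come from the labelled samples is also not known.

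The stretches of DNA just upstream of LAT, CD3D and CD247 are shown because LAT and CD3D had the clearest changes below and CD247 encodes the chain with the most ITAMs. RefSeq windows on GRCh38.p14 were at hand for 6 of the 10 genes, and the bases printed lie outside the span of each gene in GENCODE 29, written 5′ to 3′ on the strand of the gene, with GGAA or its reverse complement TTCC in capitals. GGAA is the core of sites bound by ETS transcription factors.
LAT (chr16:28984553-28984802, plus strand): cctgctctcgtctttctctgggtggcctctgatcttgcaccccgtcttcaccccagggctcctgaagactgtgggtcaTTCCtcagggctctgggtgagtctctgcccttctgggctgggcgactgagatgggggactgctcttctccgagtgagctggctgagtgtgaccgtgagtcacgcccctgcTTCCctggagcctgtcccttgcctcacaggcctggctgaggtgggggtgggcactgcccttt
CD3D (chr11:118342745-118342955, minus strand): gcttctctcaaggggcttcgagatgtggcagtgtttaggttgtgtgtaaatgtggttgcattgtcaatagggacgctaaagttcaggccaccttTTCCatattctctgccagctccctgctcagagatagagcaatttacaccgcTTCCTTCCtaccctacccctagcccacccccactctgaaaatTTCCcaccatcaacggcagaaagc
CD247 (chr1:167518611-167518779, minus strand): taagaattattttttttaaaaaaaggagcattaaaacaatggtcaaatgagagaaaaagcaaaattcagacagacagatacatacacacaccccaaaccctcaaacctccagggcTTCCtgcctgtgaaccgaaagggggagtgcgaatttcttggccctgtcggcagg

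The printed stretch of CD3D holds 4 such matches, that of LAT 2 and that of CD247 1, and all of them read TTCC on the strand of the gene. The stretch of LAT stops short of the gene, and the last 24 bases before it (chr16:28984802-28984825), not printed, hold 1 more TTCC. Over the full 250 bases before each RefSeq start site, searched on both strands, 11 of 13 windows of the 6 genes held GGAA, against 92.7% of 35093 windows of all genes. The E-box CANNTG was in 8 of the 13 windows and in 61.8% of all windows. TGTGGT, a core bound by RUNX factors, was in 2 of the 13 windows and in 11.0% of all windows. The shares for GGAA and CANNTG were thus near those of promoters in general, and several windows belong to the same gene.

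Per kilobase of exon, the 10 genes fell into an order that spanned from CD8A at 7450 mean normalized counts per kb to CD4 at 0.399. CD3D (5338 per kb), CD3E (4572 per kb) and CD247 (3231 per kb) followed CD8A closely. CD8B (1004 per kb), LAT (808 per kb) and ZAP70 (686 per kb) came next, and LCK (272 per kb) and CD3G (96.2 per kb) stood lower. Per kilobase of the longest annotated transcript instead of all exons, the order was the same except that LAT (1465 per kb) passed CD8B (1321 per kb). No spread over samples is known for these levels, so neighbours in the order cannot be told apart by a test.

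**Figure D1:**
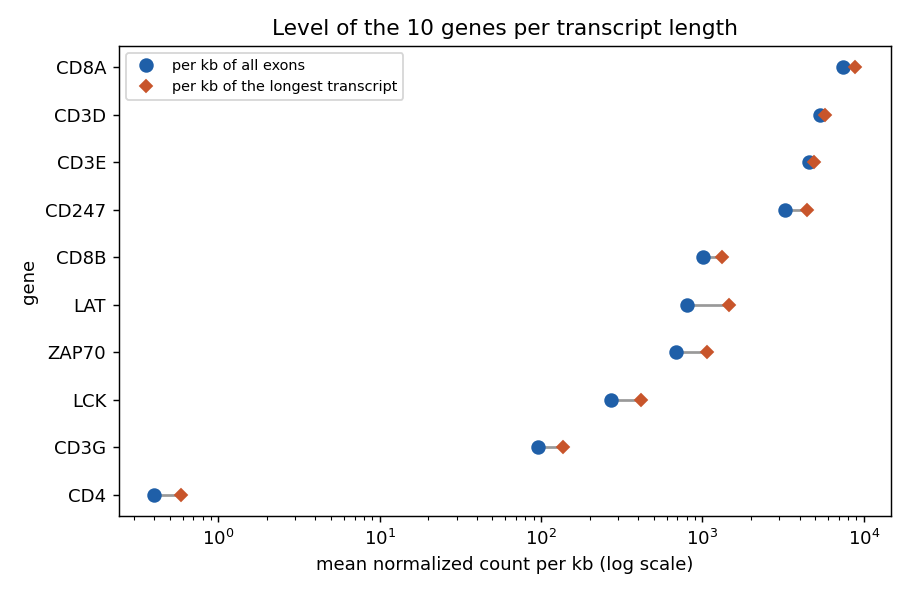
Mean normalized count per kb (log axis) of each of the 10 genes, divided by the length of all annotated exons (circles) or of the longest transcript (diamonds). CD8A was highest at 7450 per kb of exon and CD4 lowest at 0.399, with CD3G at 96.2 well below the other CD3 chains.

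CD3E encodes the epsilon chain, which pairs with both the delta and the gamma chain and is needed for the complex to reach the surface. The gene (ENSG00000198851.9, GRCh38, GENCODE 29) maps to chromosome 11 from 118304545 to 118316175 on the plus strand. Its mean normalized count was 13003 and its log2 fold change -0.51 (adjusted p = 4.26e-16, SE 0.06) in the authors' deposited table. This put its level in the numerator group at 70.4% of that in the denominator group, with a 95% interval from the deposited standard error of 65.0 to 76.4%.

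CD3D, the delta chain, lies nearby on chromosome 11 from 118338954 to 118342744, minus strand (ENSG00000167286.9). Its mean normalized count was 4959 and its log2 fold change -0.77 (adjusted p = 2.66e-36, SE 0.06) in the authors' deposited table. The level in the numerator group was 58.7% of the denominator level (95% interval 54.1 to 63.6%), the largest called fall among the CD3 and zeta chains, and the interval did not meet that of CD3E. CD3D ranked 99 by p-value among all tested genes with negative log2 fold changes.

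CD3G, the gamma chain, begins 1.6 kb from CD3D and runs the other way, on chromosome 11 from 118344344 to 118355161, plus strand (ENSG00000160654, in an older version in the table than in GENCODE 29). It had a mean normalized count of 369 and a log2 fold change of -0.97 (adjusted p = 0.0537, SE 0.40) in the authors' deposited table. It did not pass the threshold, although its estimate was more negative than that of CD3D. The 95% interval reached from 29.4 to 88.2% of the denominator level and overlapped the interval of every other tested gene of the set. The standard error of CD3G was larger than that of 98.2% of the 1850 tested genes whose mean lay within 1.5-fold of its own, where the median was 0.16. Its level also stood apart, since CD3D was 55.5 times and CD3E 47.5 times as high per kb of exon (42.0 and 35.9 times per kb of the longest transcript). The table does not show whether every read of CD3G was counted.

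CD247, the zeta chain, is found on chromosome 1 from 167430640 to 167518610, minus strand (ENSG00000198821.10). The mean normalized count was 13033 and the log2 fold change -0.64 (adjusted p = 8.17e-11, SE 0.09) in the authors' deposited table. Its numerator level was 64.1% of the denominator level (95% interval 56.5 to 72.8%). This interval overlapped those of CD3D, CD3E and CD3G. Among the 3 chains with a call, only the intervals of CD3D and CD3E lay apart, and differences between chains were not tested. For a gene of its level the standard error of CD247 was also wide, larger than that of 98.1% of 155 tested genes of like mean.

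CD8A and CD8B encode the alpha and beta chains of the co-receptor of cytotoxic T cells, which binds MHC class I and carries LCK on its alpha chain. They lie 6.94 kb apart on chromosome 2, CD8A from 86784610 to 86808396 (ENSG00000153563.15) and CD8B from 86815339 to 86861924 (ENSG00000172116.21), both on the minus strand. CD8A ranked 38 in mean among all 33644 genes, at a mean normalized count of 27074, with a log2 fold change of -0.32 (adjusted p = 0.000140, SE 0.07) in the authors' deposited table. Its numerator level was 80.1% of the denominator level (95% interval 72.4 to 88.7%), the smallest fall among the 8 genes called. CD8B had a mean normalized count of 1872 and a log2 fold change of -0.60 (adjusted p = 1.62e-12, SE 0.08) in the authors' deposited table. The numerator level of CD8B was 66.0% of the denominator level (95% interval 59.1 to 73.6%). The intervals of both chains overlapped, which does not test whether their changes differ. Per kb of exon CD8A was 7.42 times as high as CD8B. Reads of CD8B may be shared with its near-identical copy CD8B2, which was searched for by name and not found in the table. CD8B also overlaps the pseudogene ANAPC1P1 on the opposite strand, called lower at a log2 fold change of -0.58 (adjusted p = 0.0373, SE 0.23) in the authors' deposited table. Whether counting used the strand is not given in the sources used here.

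CD4, the co-receptor of helper T cells, which binds MHC class II, maps to chromosome 12 from 6786858 to 6820808, plus strand (ENSG00000010610.9). It was close to the lower limit of detection, with a mean normalized count of 1.83 and a log2 fold change of -2.97 (SE 2.59) that has no adjusted p in the authors' deposited table. The unadjusted p was 0.250 in the authors' deposited table, and the 95% interval of the log2 fold change ran from -8.05 to 2.10. With an interval this wide, a difference between the groups was not detectable. CD8A was 18681 times as high as CD4 per kb of exon, and 15134 times per kb of the longest transcript.

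LCK, the SRC family kinase that starts signalling by phosphorylating the ITAMs, maps to chromosome 1 from 32251239 to 32286165, plus strand (ENSG00000182866.16). It had a mean normalized count of 908 and a log2 fold change of -0.38 (adjusted p = 0.0273, SE 0.14) in the authors' deposited table. The numerator level was 76.6% of the denominator level, with a 95% interval of 63.1 to 93.1%. FYN, the other SRC family kinase of T cells, had a mean normalized count of 3274 and a log2 fold change of -0.25 (adjusted p = 0.00228, SE 0.07) in the authors' deposited table. FYN was 1.63 times as high as LCK per kb of exon and 2.15 times per kb of the longest transcript.

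ZAP70, the kinase that docks on phosphorylated ITAMs, maps to chromosome 2 from 97713560 to 97739862, plus strand (ENSG00000115085.13). Its mean normalized count was 3508 and its log2 fold change -0.42 (adjusted p = 7.51e-13, SE 0.06) in the authors' deposited table. This was 74.7% of the denominator level (95% interval 69.2 to 80.5%). Per kb of exon ZAP70 was 2.52 times as high as LCK. SYK, the paralog of ZAP70 used by B cells and myeloid cells, was at a mean normalized count of 0.183, without an adjusted p, in the authors' deposited table.

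LAT, the transmembrane scaffold phosphorylated by ZAP70, showed the largest called change of the set. The gene maps to chromosome 16 from 28984826 to 28990783, plus strand (ENSG00000213658.11), a few bases downstream of the stretch printed above. Its mean normalized count was 3579 and its log2 fold change -1.19 (adjusted p = 2.11e-112, SE 0.05) in the authors' deposited table. The numerator level was 43.7% of the denominator level (95% interval 40.7 to 46.9%). LAT ranked 15 by p-value among all tested genes with negative log2 fold changes. Its interval lay below those of the other 7 called genes and overlapped only that of CD3G. The annotated transcript AC109460.3 overlaps LAT on the same strand and is not among the genes of the deposited table.

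**Figure D2:**
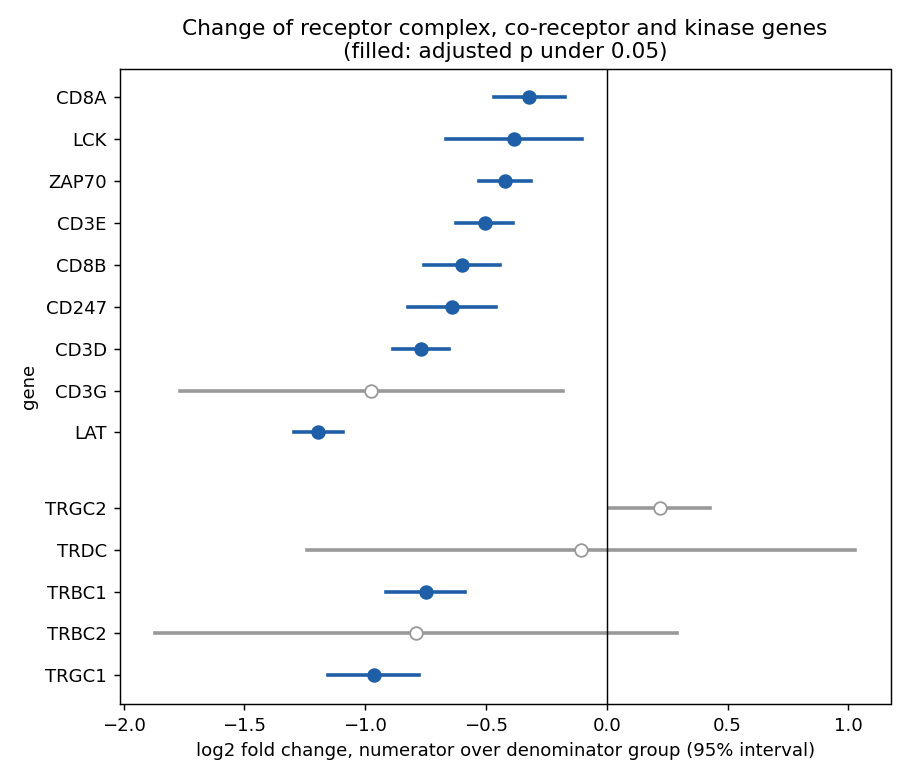
Log2 fold change of the 9 tested genes and of 5 receptor constant region genes (x axis, numerator over denominator group), with 95% intervals from the deposited standard errors. Filled points passed an adjusted p of 0.05, CD4 had no adjusted p and is not drawn, and of the 9 tested genes only CD3G has an interval that meets that of LAT at -1.19.

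Taken as a set, 8 of the 9 tested genes were called lower and 0 higher by the Wald test of the authors' deposited table, with 0 higher and 9 lower at an unadjusted p under 0.05. The median log2 fold change of the 9 was -0.60, against 0 over all 13957 tested genes. Of all tested genes, 14.8% were called lower and 29.5% were called in either direction. Of the 8312 tested genes with a mean of at least 72.0, which holds for all 9, 21.6% were called lower. Among tested genes with a mean within 1.5-fold of that of each of the 9, this share ran from 18.6% (CD3G) to 35.3% (CD3E). In 10 of the 36 pairs of tested genes the 95% intervals lay apart, 7 of them pairs with LAT and 3 pairs of CD3D with CD3E, ZAP70 and CD8A. With errors widened by the spread that the deposited statistics show (2.03 times), LCK (adjusted p = 0.703) and CD8A (adjusted p = 0.250) lost their call, and against a change of 1.5-fold LAT (adjusted p = 8.01e-29) and CD3D (adjusted p = 0.0442) alone kept it. In RNA from bulk samples, fewer cells that express a gene and less of its RNA per cell cannot be told apart.

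**Figure D3:**
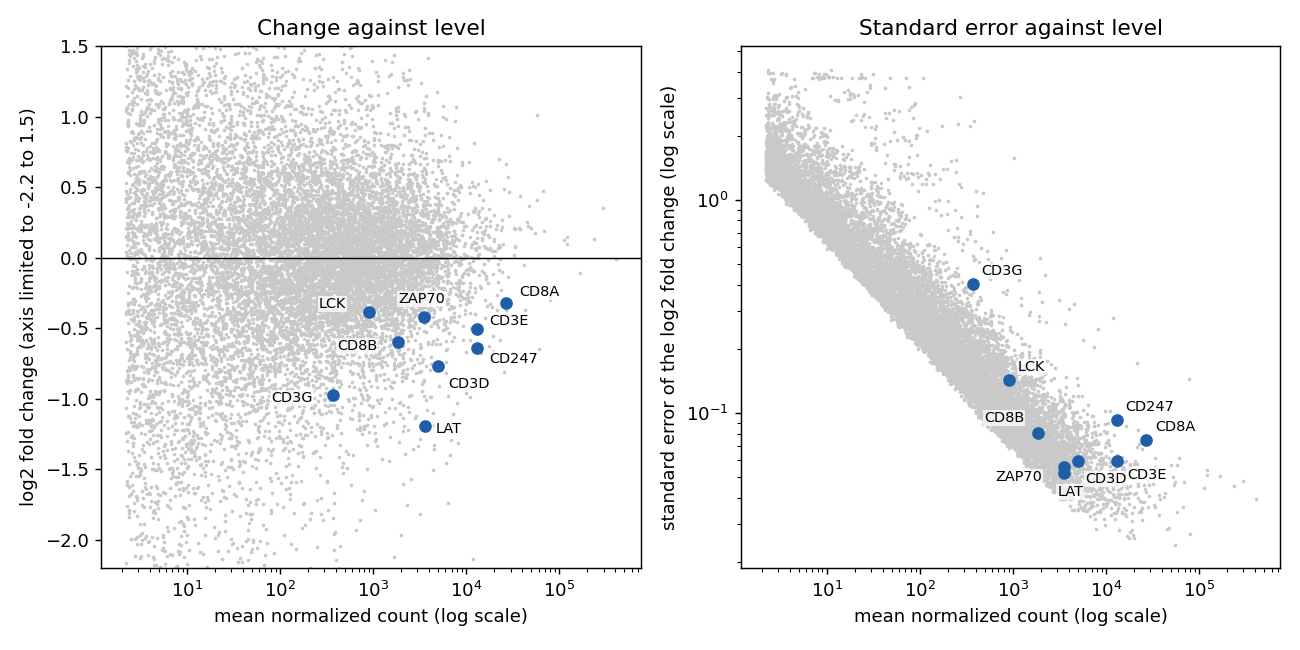
Log2 fold change (left) and its standard error (right, log axis) against the mean normalized count (log axis) of all tested genes (grey), with the 9 tested genes in blue. All 9 lie below 0, and CD3G, CD247 and CD8A sit high in standard error for their level.

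Markers of natural killer cells moved in the same direction as the set. Of 5 tested, 3 were called lower and 0 higher (4 lower and 0 higher at an unadjusted p under 0.05). Over all tested genes, 14.8% were called lower and 29.5% in either direction. The 3 markers called lower were NCAM1 at a log2 fold change of -1.61 (SE 0.10), FCGR3A at -1.36 (SE 0.33) and KLRD1 at -1.02 (SE 0.38) in the authors' deposited table. Of the markers, NCAM1 alone had a mean of at least 72.0, with FCGR3A at 61.6 and KLRD1 at 40.8. NCR1, the natural cytotoxicity receptor NKp46, was at 0 and KLRF1 at 3.43 in the authors' deposited table, and the summed mean of the 7 markers was 686 against 68306 for the 10 genes. Values for each group are not known for these markers, and their part in the changes of the set was not tested.

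The constant regions of the receptor chains themselves followed in part. Of 5 such genes in the table, 2 were called lower and 0 higher (1 higher and 2 lower at an unadjusted p under 0.05). The shares over all tested genes were 14.8% called lower and 29.5% called in either direction. TRBC2 and TRDC were genes of low level. TRAC was searched for by name and not found in the table. TRBC1, a constant region of the beta chain, had a mean normalized count of 1664 and a log2 fold change of -0.75 (adjusted p = 1.13e-17, SE 0.08) in the authors' deposited table. This call did not hold against a 1.5-fold change (adjusted p = 0.620). TRBC2, its near-identical copy, was at a mean normalized count of 61.9 with a log2 fold change of -0.79 (adjusted p = 0.314, SE 0.55) in the authors' deposited table. Of the gamma chain genes, TRGC1 had a log2 fold change of -0.96 (adjusted p = 4.46e-22, SE 0.10), and TRGC2 one of 0.22 (adjusted p = 0.110, SE 0.11), in the authors' deposited table. Reads of such copies may be split between them by counting, so the values of single constant regions are uncertain. TRDC, of the delta chain, had a mean normalized count of 23.5 and a log2 fold change of -0.11 (adjusted p = 0.930, SE 0.58) in the authors' deposited table.

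Regulators of LCK and ZAP70 were called in both directions, with 10 of 20 tested genes called lower, 2 higher and 8 not passed (median log2 fold change -0.52). For this list and those below, the shares over all tested genes were 14.8% called lower and 29.5% called in either direction. PTPRC, which encodes the phosphatase CD45 that keeps LCK ready for activation, had a log2 fold change of -1.94 (adjusted p = 2.61e-10, SE 0.29) in the authors' deposited table. SLA, an adaptor that promotes turnover of the receptor complex, was at -1.85 (adjusted p = 1.95e-66, SE 0.11) in the authors' deposited table. CBLB, a ubiquitin ligase that restrains receptor signalling, was at -1.71 (adjusted p = 7.65e-06, SE 0.35) in the authors' deposited table and lost its call with widened errors (adjusted p = 0.134). Genes that support and genes that restrain the kinases were both among those called. The 2 called higher were DUSP22, a phosphatase that acts on LCK, at 1.22 (SE 0.07), and UNC119, a chaperone of lipid-modified kinases, at 0.48 (SE 0.08) in the authors' deposited table. Both were singled out after their values were seen.

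The complex that assembles on LAT had 15 of 22 tested genes called lower, 2 higher and 5 not passed, with a median log2 fold change of -0.41. GRAP2, the adaptor GADS that links LAT to SLP-76, had a log2 fold change of -1.22 (adjusted p = 3.12e-56, SE 0.08) in the authors' deposited table, close to that of LAT. INPP5D, the lipid phosphatase SHIP1, was at -1.11 (adjusted p = 3.47e-18, SE 0.12) in the authors' deposited table. RASGRP1, an activator of RAS, was at -1.06 (adjusted p = 1.30e-12, SE 0.14) in the authors' deposited table. The 2 called higher were TXK, a TEC family kinase, at 0.81 (adjusted p = 0.0291, SE 0.30), and SOS2, an activator of RAS, at 0.80 (adjusted p = 0.0480, SE 0.33), in the authors' deposited table, named after their values were seen, and with widened errors 0 of the list were called higher. PLCG1, the phospholipase that LAT recruits, was at -0.11 (adjusted p = 0.321, SE 0.08) in the authors' deposited table and did not pass, and it too was singled out after its value was seen.

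Further downstream, in the branch of protein kinase C theta and calcineurin, 3 of 14 tested genes were called lower, 2 higher and 9 did not pass (median log2 fold change -0.12). PRKCQ, the kinase C theta itself, had a log2 fold change of -1.79 (adjusted p = 1.02e-67, SE 0.10) in the authors' deposited table. ITPR1, a calcium release channel, was at 1.22 (adjusted p = 0.00209, SE 0.34) in the authors' deposited table, and lost its call with widened errors (adjusted p = 0.427) and against a 1.5-fold change (adjusted p = 0.758). Shares of called genes were not compared between these lists by a test.

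**Figure D4:**
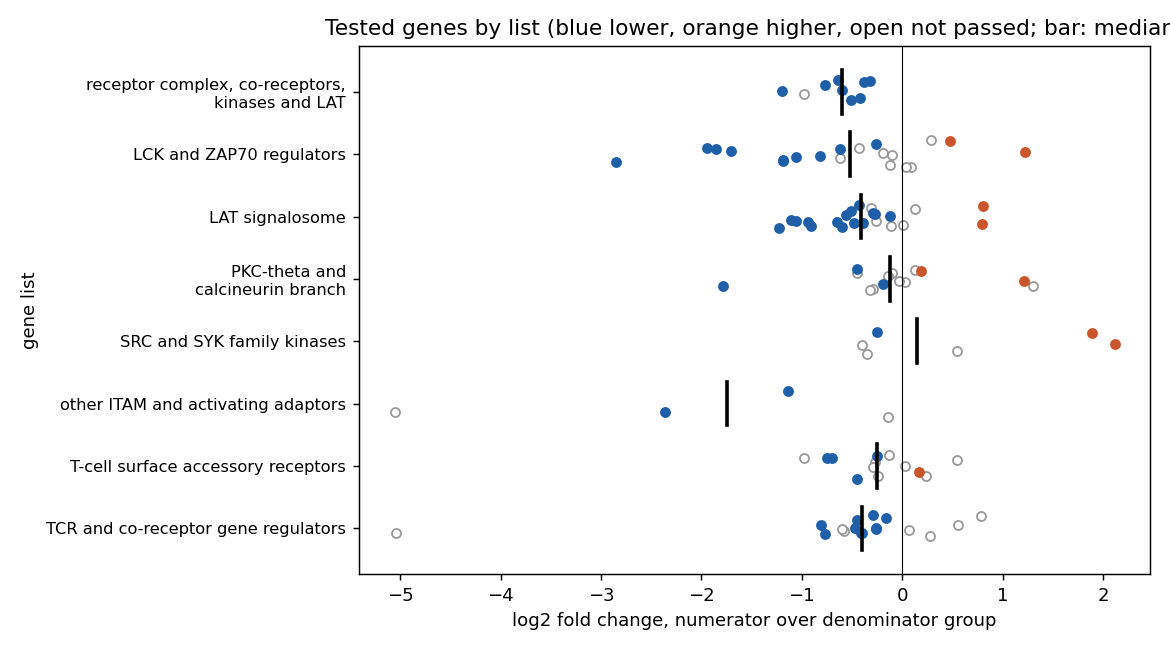
Log2 fold change of every tested gene (x axis) in the receptor set and in 7 related gene lists (rows), with called genes filled in blue (lower) or orange (higher), genes that did not pass open, and the median of each list as a bar. The median was -0.60 for the receptor set, -0.52 for regulators of LCK and ZAP70 and -0.41 for the LAT complex.

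Among kinases of the SRC and SYK families other than LCK and ZAP70, 6 were tested, with FYN called lower, 2 called higher and 3 not passed (median log2 fold change 0.15). Only 3 genes of this list had a mean of at least 72.0, so its median rests in part on genes of low level. YES1, at a mean normalized count of 74.6, had a log2 fold change of 2.12 (adjusted p = 0.000163, SE 0.50) in the authors' deposited table, which did not hold with widened errors (adjusted p = 0.258). FYN lost its call with widened errors (adjusted p = 0.434) and against a 1.5-fold change (adjusted p = 1). Of other ITAM-bearing or activating adaptors, 2 of 4 tested were called lower and 0 higher (3 lower and 0 higher at an unadjusted p under 0.05), with a median log2 fold change of -1.75. HCST, which encodes the adaptor DAP10 of the NKG2D receptor, had a mean normalized count of 560 and a log2 fold change of -1.13 (adjusted p = 9.95e-29, SE 0.10) in the authors' deposited table. No other gene of this list had a mean of at least 72.0, so the median rests in part on genes of low level. CD79B, the other gene called, had a mean normalized count of 26.8 and a log2 fold change of -2.37 (SE 0.43) in the authors' deposited table. It was named after its value was seen.

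Genes that control transcription of the receptor and co-receptor genes were called lower in 10 of 17 tested and higher in 0 (11 lower and 1 higher at an unadjusted p under 0.05), with a median log2 fold change of -0.41. ETS1, a founding member of the ETS family, was abundant, at a mean normalized count of 25735, with a log2 fold change of -0.81 (adjusted p = 2.33e-67, SE 0.05) in the authors' deposited table. BCL11B, a factor of T-lineage commitment, was at -0.77 (adjusted p = 1.37e-15, SE 0.09) in the authors' deposited table. RUNX1 was at -0.47 (adjusted p = 4.11e-11, SE 0.07) in the authors' deposited table. Of these 3, ETS1 passed against a 1.5-fold change, while BCL11B (adjusted p = 0.595) and RUNX1 (adjusted p = 1) did not. Binding of these factors was not measured.

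Genes near these on the chromosome were called in both directions. CD3E, CD3D and CD3G lie in 1 cluster and CD8A and CD8B in another, so the 10 genes stand at 7 places in the genome. Of 49 other tested genes within 100 kb of any of them, 14 were called higher, 10 lower and 25 did not pass, with a median log2 fold change of 0.14. Over all tested genes, 14.8% were called lower and 29.5% in either direction. UBE4A, a ubiquitin ligase gene 4.42 kb from CD3G, was at -0.24 (adjusted p = 1.61e-08, SE 0.04) and ATP5MG, an ATP synthase gene further on, at -0.0026 (adjusted p = 0.992, SE 0.10) in the authors' deposited table. SPNS1, which lies 0.278 kb from LAT, was lower, at -0.90 (adjusted p = 0.000142, SE 0.21) in the authors' deposited table. LAG3, an inhibitory receptor gene 8.40 kb from CD4, was also lower, at -1.49 (adjusted p = 8.56e-12, SE 0.21) in the authors' deposited table. ACTR1B, 49.5 kb from ZAP70, had the smallest adjusted p of the 49 and was higher, at 0.87 (adjusted p = 2.76e-105, SE 0.04) in the authors' deposited table. These neighbours were chosen after their values were seen.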

How the data were processed

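The series has RNA sequencing of 3 wild-type and 3 alt-LAMA3 knockout samples of HEK293T cells, per the labels. Per the submitters' processing notes, STAR, Salmon and hg38 were used, with no version or step stated. The software behind the comparison is not given in the sources used here, and per the file headers its columns are those of a DESeq2 Wald test. The authors' deposited table gives a mean normalized count, treated as a signal, a log2 fold change with its standard error on the log2 scale, a score (the fold change divided by its error), and a p-value with its adjusted p-value over 13957 genes. The adjusted p equalled a Benjamini-Hochberg adjustment to within 3.66e-07. Whole counts per sample were not used, so that the count test planned was replaced by the deposited comparison, and library depths are unknown. The median standard error was 0.14 for tested genes with a mean of at least 72.0 and 0.80 below it.

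Identifiers, stripped of their version, were matched to gene symbols and to GENCODE 29 on GRCh38 (33582 of 33644). The 10 genes and all lists were chosen with earlier results of these data known. The text names the 10 genes, the receptor constant regions, FYN and SYK, the highest marker of each list, and, per related list, up to 3 called genes with the largest change and a mean of at least 72.0, except that some items named by this rule are not reported here. Intervals are the fold change plus and minus the normal quantile for 95% times the deposited error. Whether the intervals of 2 genes overlap is not a test of a difference between them. The alternatives tested a change of 1.5-fold, widened errors, a recentred scale, other filters on low values and an adjusted p of 0.01. The recomputed adjustments were tested on simulated data drawn with the deposited errors, in which few genes changed. Those data lack the wider spread of the deposited statistics, so they do not test the widened errors at that spread. The spread was taken over all tested genes, including those called. Python 3.11.15, numpy 2.4.6, pandas 2.3.3, scipy 1.17.1 and matplotlib 3.10.9 were used.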

Additional observations from a re-analysis of the deposited data

How the results depend on the processing

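No paired analysis was possible because the table holds no values per sample, and for the same reason leaving out libraries and other tools or normalizations were not run. The number of the 10 genes called lower was 8, and it was 2 against a 1.5-fold change, 6 with widened errors, 9 when only means of 72.0 or more were adjusted over (where CD3G passed, adjusted p = 0.0373), 7 at an adjusted p of 0.01 and 8 without a filter. Recentring on the median, which was 0, changed nothing by construction. Calls in the related lists against a 1.5-fold change were 7 (12 in the deposited comparison) for regulators of LCK and ZAP70, 3 (17) for the LAT complex, 1 (5) for the branch of protein kinase C theta, 1 (3) for SRC and SYK family kinases, 0 (5) for accessory receptors and 1 (10) for regulators of receptor genes. With widened errors they were 7, 7, 2, 0, 0 and 3 in the same order, and 1 (2) for other adaptors, as also over means of 72.0 or more. At an unadjusted p under 0.05 the recomputed tests had 0 accessory receptors against a 1.5-fold change, and 3 of these and 1 kinase with widened errors. Over all genes the calls numbered 4120, 653 against a 1.5-fold change and 1196 with widened errors.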

Other observations

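A list of other T-cell surface molecules, with the adaptor SH2D1A counted among them, was less uniform than the receptor complex in these values. The difference was not tested. Of 13 tested genes, 4 were called lower, 1 higher and 8 did not pass, with a median log2 fold change of -0.25. SLAMF1, a receptor that binds itself on neighbouring cells, had a log2 fold change of -0.75 (adjusted p = 3.34e-06, SE 0.15), and CD48, the ligand of the receptor 2B4, one of -0.70 (adjusted p = 8.93e-08, SE 0.12), in the authors' deposited table. CD99 was at -0.46 (adjusted p = 0.000508, SE 0.12) in the authors' deposited table. SH2D1A, the adaptor SAP of the SLAM receptors, was the gene called higher, at 0.17 (adjusted p = 0.00376, SE 0.05) in the authors' deposited table. It is not itself a surface receptor, and 0 of the other genes of the list were called higher. Against a 1.5-fold change, and with widened errors, 0 of the 13 were called (0 and 3 at an unadjusted p under 0.05). CD5, a receptor found on most T cells, was at a mean normalized count of 1.87, against 3030 for its relative CD6, in the authors' deposited table. TCF7, a transcription factor of naive and memory T cells, was at a mean normalized count of 6.66 in the authors' deposited table. SH2D1A, CD5, CD6 and TCF7 were singled out after their values were seen.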
